A study of Mus musculus with 4 samples.

Results

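Chemokine genes were examined for acetylation of histone H3 at lysine 27 (H3K27ac), a mark found at active promoters and enhancers, in liver sinusoidal endothelial cells (LSECs) of the mouse. The 10 genes were *Cxcl1*, *Cxcl2*, *Ccl2*, *Ccl7*, *Ccl5*, *Cxcl9*, *Cxcl10*, *Cxcl12*, *Cxcl16*, and *Cx3cl1*, of 21887 protein-coding genes annotated in GRCm38. They were chosen by name, as members of the chemokine family. For each gene, peaks were taken from the gene body and 10 kb on each side, which is called its window. H3K27ac ChIP-Seq had been done on isolated LSECs in 2 libraries. Their names carry the numbers 2 and 3, which are used here as replicate numbers, and each has an input library that was not analysed here. The study's methods describe purification of mouse LSECs with anti-CD146 microbeads and a few hours of culture on collagen before harvest. LSECs came from *Col4a1* fl/wt mice and from mice that carried *Cdh5* CreERT2 with either *Col4a1* fl/wt or *dCas9-KRAB*, but the methods tie none of these, nor the culture, to the H3K27ac libraries. The age and treatment of the mice are not tied to them either, so both were taken as 1 group and no conditions were compared. Whether the libraries came from separate animals is not stated either.

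Chemokines are small secreted proteins that direct the migration of leukocytes through receptors coupled to G proteins. They are named after the spacing of their first cysteines, as CC, CXC, or CX3C. LSECs line the hepatic sinusoids, where blood leukocytes slow and adhere, and chemokines held on the endothelial surface guide them into the tissue. Many inflammatory chemokine genes are known targets of NF-κB, and *Cxcl9* and *Cxcl10* of interferons, whereas *Cxcl12* is better known for its steady production by stromal cells.

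The authors' list of replicate 2 held 26975 peaks and that of replicate 3 held 64498, with median widths of 322 bp and 345 bp. Of replicate 2 peaks, 99.2% lay in a region shared with replicate 3, and of replicate 3 peaks 37.7% did. Regions were called shared when peaks of both libraries overlapped by at least 1 bp. Read counts are not part of the lists, and with the depth unknown a missing peak may mean that the mark was too weak to be called. Fold enrichment is the ratio of a peak to its background as the authors' caller gave it. Because the lists differ in strength, the main fold enrichments are given with their percentile within their own list. Of 12 LSEC markers, 9 had a shared region within 1 kb of a gene end, against 44.1% of all protein-coding genes. The other 3, *Stab2*, *Clec4g*, and *Mrc1*, had a peak of replicate 3 only there, with fold enrichments of 5.86, 4.56, and 4.15. Such a region was found at 0 of 7 markers of Kupffer cells or macrophages, 0 of 7 of hepatic stellate cells, 0 of 7 of hepatocytes, and 0 of 7 of T or NK cells. Among these, the hepatocyte genes *Apoa1* and *Apob* had a peak of replicate 3 only, each with a fold enrichment of 11.4, above those of the 3 LSEC markers just named. The exceptions among markers of other cells were *Cd79a*, 1 of 3 B cell markers, whose region also lay at an end of *Arhgef1*, and *S100a8*, 1 of 4 neutrophil markers. At *S100a8* the fold enrichment was 7.44 in replicate 2 and 12.0 in replicate 3. The part of such cells in the results was not tested. Cells carrying the mark in smaller number and a weaker mark in each cell cannot be told apart in these libraries.

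The promoters of *Cxcl1*, *Cxcl2*, *Cxcl10*, and *Cxcl9* are shown first, because the first 3 lay wholly under a peak in both libraries and that of *Cxcl9*, a neighbour of *Cxcl10*, did not. Each is the 250 bases upstream of the annotated start, 5′ to 3′ on the strand of the gene, from RefSeq on GRCm38.p6. Capitals mark matches on either strand to a common form of the NF-κB site (GGG, any 3 bases, then TTCC) and to the core of the interferon-stimulated response element, or ISRE (GAAA, any 2 bases, then GAAA). Overlapping matches run together.
*Cxcl1*, chr5:90890995-90891244, plus strand: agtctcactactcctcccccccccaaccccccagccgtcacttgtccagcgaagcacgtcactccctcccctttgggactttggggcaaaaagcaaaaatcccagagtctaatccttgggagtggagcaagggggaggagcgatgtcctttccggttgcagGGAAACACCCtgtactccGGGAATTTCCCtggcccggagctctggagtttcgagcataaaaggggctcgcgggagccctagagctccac
*Cxcl2*, chr5:90903649-90903898, plus strand: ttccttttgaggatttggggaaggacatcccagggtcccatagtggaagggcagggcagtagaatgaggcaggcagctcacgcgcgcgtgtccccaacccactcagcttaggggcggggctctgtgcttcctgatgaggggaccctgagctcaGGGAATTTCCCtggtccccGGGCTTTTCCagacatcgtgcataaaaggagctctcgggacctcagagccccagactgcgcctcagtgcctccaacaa
*Cxcl10*, chr5:92348890-92349139, minus strand: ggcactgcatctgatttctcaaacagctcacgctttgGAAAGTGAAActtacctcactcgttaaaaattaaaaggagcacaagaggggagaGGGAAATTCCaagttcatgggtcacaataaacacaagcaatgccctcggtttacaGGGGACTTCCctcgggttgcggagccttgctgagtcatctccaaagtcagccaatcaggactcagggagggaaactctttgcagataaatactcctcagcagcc
*Cxcl9*, chr5:92328080-92328329, minus strand: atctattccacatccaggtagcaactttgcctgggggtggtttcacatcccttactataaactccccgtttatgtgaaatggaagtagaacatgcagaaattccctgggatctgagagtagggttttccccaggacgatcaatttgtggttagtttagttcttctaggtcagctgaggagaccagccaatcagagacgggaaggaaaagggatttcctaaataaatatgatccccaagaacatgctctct

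Matches to the NF-κB form were found in the promoters of *Cxcl1*, *Cxcl2*, and *Cxcl10*, and in 4.65% of all 32841 promoter windows of the same length. *Cxcl1* and *Cxcl2* held the same overlapping matches, GGGAATTTCC on the gene's strand and GGAATTTCCC for the opposite strand, from 71 to 61 bases upstream of the start in *Cxcl1* and from 97 to 87 in *Cxcl2*. The *Cxcl2* promoter also held GGGCTTTTCC, from 78 to 69 bases upstream, and that of *Cxcl1* held GGAAACACCC, a match on the opposite strand, from 89 to 80. In *Cxcl10*, GGGAAATTCC lay from 159 to 150 and GGGGACTTCC from 104 to 95 bases upstream. The ISRE core was found only in *Cxcl10* among the 6 promoters at hand, as GAAAGTGAAA from 213 to 204 bases upstream, and in 2.98% of all windows. TGANTCA, the core bound by AP-1, was also found only in *Cxcl10*, against 6.75% of all windows, and TATAAA in *Cxcl9* and *Cx3cl1*, against 12.4%. The windows of *Cxcl9*, *Cxcl12*, and *Cx3cl1* held no match to the first 2 motifs, which says only that these letters are not there. G and C made up 59.2% of the *Cxcl1* window, 60% of that of *Cxcl2*, and 48% of that of *Cxcl10*, against 64.4% in *Cxcl12*, 64.8% in *Cx3cl1*, 44.4% in *Cxcl9*, and a median of 52.4% over all windows. Promoters of *Ccl2*, *Ccl5*, *Ccl7*, and *Cxcl16* were not used here.

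Of the 10 chemokine genes, 5 had a shared region within 1 kb of their own ends, namely *Cxcl1*, *Cxcl2*, *Ccl2*, *Cxcl10*, and *Cxcl16*. At another 3, *Ccl7*, *Cxcl9*, and *Cx3cl1*, only replicate 3 had a peak there, and *Ccl5* and *Cxcl12* had none. Over all protein-coding genes, 44.1% had a shared region at an end, 9.80% had a peak of replicate 3 only, and 46.1% had none. Among the 9261 protein-coding genes no longer than the longest of the 10, *Cxcl12* at 12834 bp, these shares were 34.0%, 8.50%, and 57.5%. Of the windows, 9 of 10 held a shared region of some kind, and a window without one was found for 41.5% of all protein-coding genes and 54.8% of those no longer than *Cxcl12*. For *Ccl7* the only shared region lay at the end of *Ccl2*, at the edge of the window, and for *Cxcl9* at an end of *Art3*. With 5 kb on each side, for which no share over all genes is at hand, 8 windows held one. Distal regions, which lay more than 1 kb from the ends of the gene and of any other protein-coding gene, were shared in the windows of 7 of the 10. The exceptions were *Ccl7*, *Cxcl9*, and *Cxcl12*. The share over all protein-coding genes was 28.8%, and over those no longer than *Cxcl12* it was 15.9%. When a region counted as shared only where peaks overlapped by at least 50% of each, 3 of the 10 genes had one at an end and 2 had a distal one. The shares over all protein-coding genes given above hold for the 1 bp rule, and none is at hand for the 50% rule. In replicate 3 taken alone, 8 of the 10 had a peak at an end, as had 11792 of all 21887 protein-coding genes. In all, 42 distinct regions lay in the windows, of which 16 were shared, 26 were seen in replicate 3 only, and 0 in replicate 2 only. The 16 shared regions comprised 5 at a chemokine gene's own end, 9 distal regions, and 2 at the end of another gene. The regions seen in replicate 3 only had fold enrichments from 3.61 to 17.8 with a median of 5.35, near the median of 6.20 over all such peaks of that library.

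**Figure D1:**
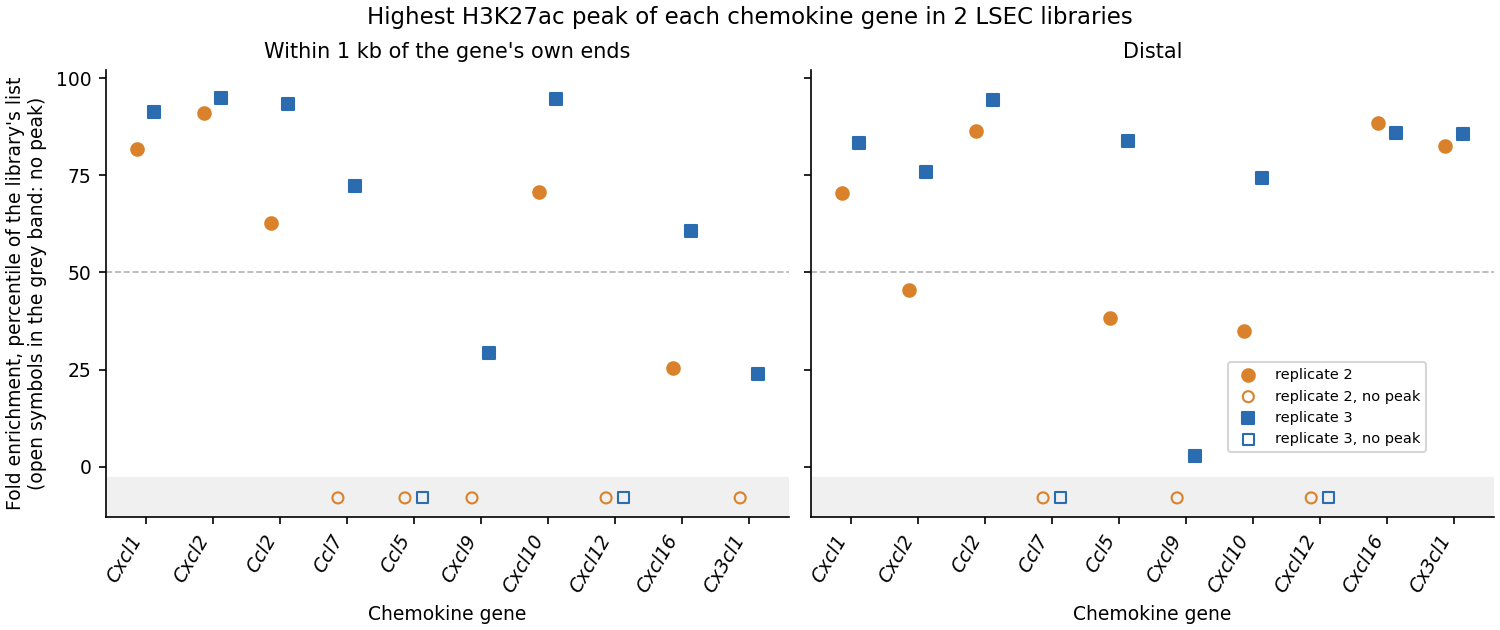
Highest H3K27ac peak of each chemokine gene, as the percentile of its fold enrichment within its own library's list (vertical axis), at the gene's own ends (left) and in distal regions (right). Circles are replicate 2 and squares replicate 3, open symbols in the grey band mark no peak, and the dashed line marks the 50th percentile. At the ends of *Cxcl1*, *Cxcl2*, *Ccl2*, and *Cxcl10* all symbols lie above 60, whereas *Ccl5* and *Cxcl12* have none.

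*Cxcl1* and *Cxcl2* encode CXC chemokines that attract neutrophils through the receptor CXCR2. The genes lie in the same direction on chromosome 5, at 90891245 to 90893121 and 90903899 to 90905938, with 10.8 kb between them, so their windows overlap. At the start of *Cxcl1*, the shared region spanned chr5:90890597-90892455. Its highest fold enrichment was 19.5 in replicate 2 (81.9th percentile) and 48.7 in replicate 3 (91.2nd percentile). At the start of *Cxcl2*, the shared region spanned chr5:90902852-90905099 and was 2248 bp wide. Its fold enrichment was 25.8 in replicate 2 (91.1st percentile) and 64.5 in replicate 3 (94.9th percentile), the highest of the 16 shared regions in either library. The median width was 701 bp over all shared regions, distal ones included, and 1076 bp over the 5 at a chemokine gene's own end. The highest points of the peaks lay 66 and 154 bases upstream of the start of *Cxcl2* in replicates 2 and 3, and 120 and 64 bases inside *Cxcl1*.

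The *Cxcl1* and *Cxcl2* windows also held 4 of the 9 shared distal regions. The strongest, at chr5:90881475-90882507, had its highest point 9.39 kb upstream of *Cxcl1* in replicate 2 and 9.36 kb in replicate 3, with fold enrichments of 14.6 and 30.6. Between the genes, a region at chr5:90900121-90901152 had fold enrichments of 9.15 and 17.9 and peaked 3.04 and 2.96 kb upstream of *Cxcl2*. Beyond *Cxcl2*, the region at chr5:90908714-90909347 gave 6.78 and 20.8. The fourth region, at chr5:90907339-90907596, gave 7.46 in replicate 2 (32.3rd percentile) and 3.46 in replicate 3 (1.27th percentile) and was the only shared region of the 16 with the higher fold enrichment in replicate 2. Shared regions covered 19.2% of the *Cxcl1* window and 18.9% of that of *Cxcl2*, at the 99.6th percentile of all protein-coding genes, whose median was 1.20%. Each of these windows takes in regions of the other gene. The covered share also depends on gene length, which was 1877 bp for *Cxcl1*, 2040 bp for *Cxcl2*, and 17169 bp in the median over all protein-coding genes. No percentile among genes of like length is at hand. With 5 kb on each side instead of 10 kb, the covered share was 34.7% for *Cxcl2* and 15.7% for *Cxcl1*.

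The CXC cluster to which these genes belong held 7 annotated ligand genes over 147 kb. Shared regions at a gene end were found at 4 of them, *Pf4*, *Cxcl3*, *Cxcl1*, and *Cxcl2*, and *Cxcl5*, *Ppbp*, and *Cxcl15* had no peak at an end. A shared region at an end was found for 44.1% of all protein-coding genes and 34.0% of those no longer than *Cxcl12*. *Cxcl3*, another ligand of CXCR2, had fold enrichments of 10.1 and 27.4 at its end in replicates 2 and 3. *Pf4*, a platelet chemokine, had 5.42 and 5.54. Within the cluster the fold enrichments at the ends were therefore ordered *Cxcl2*, *Cxcl1*, *Cxcl3*, *Pf4* in both libraries. With 1 value a library, the spread of these values is not known.

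**Figure D2:**
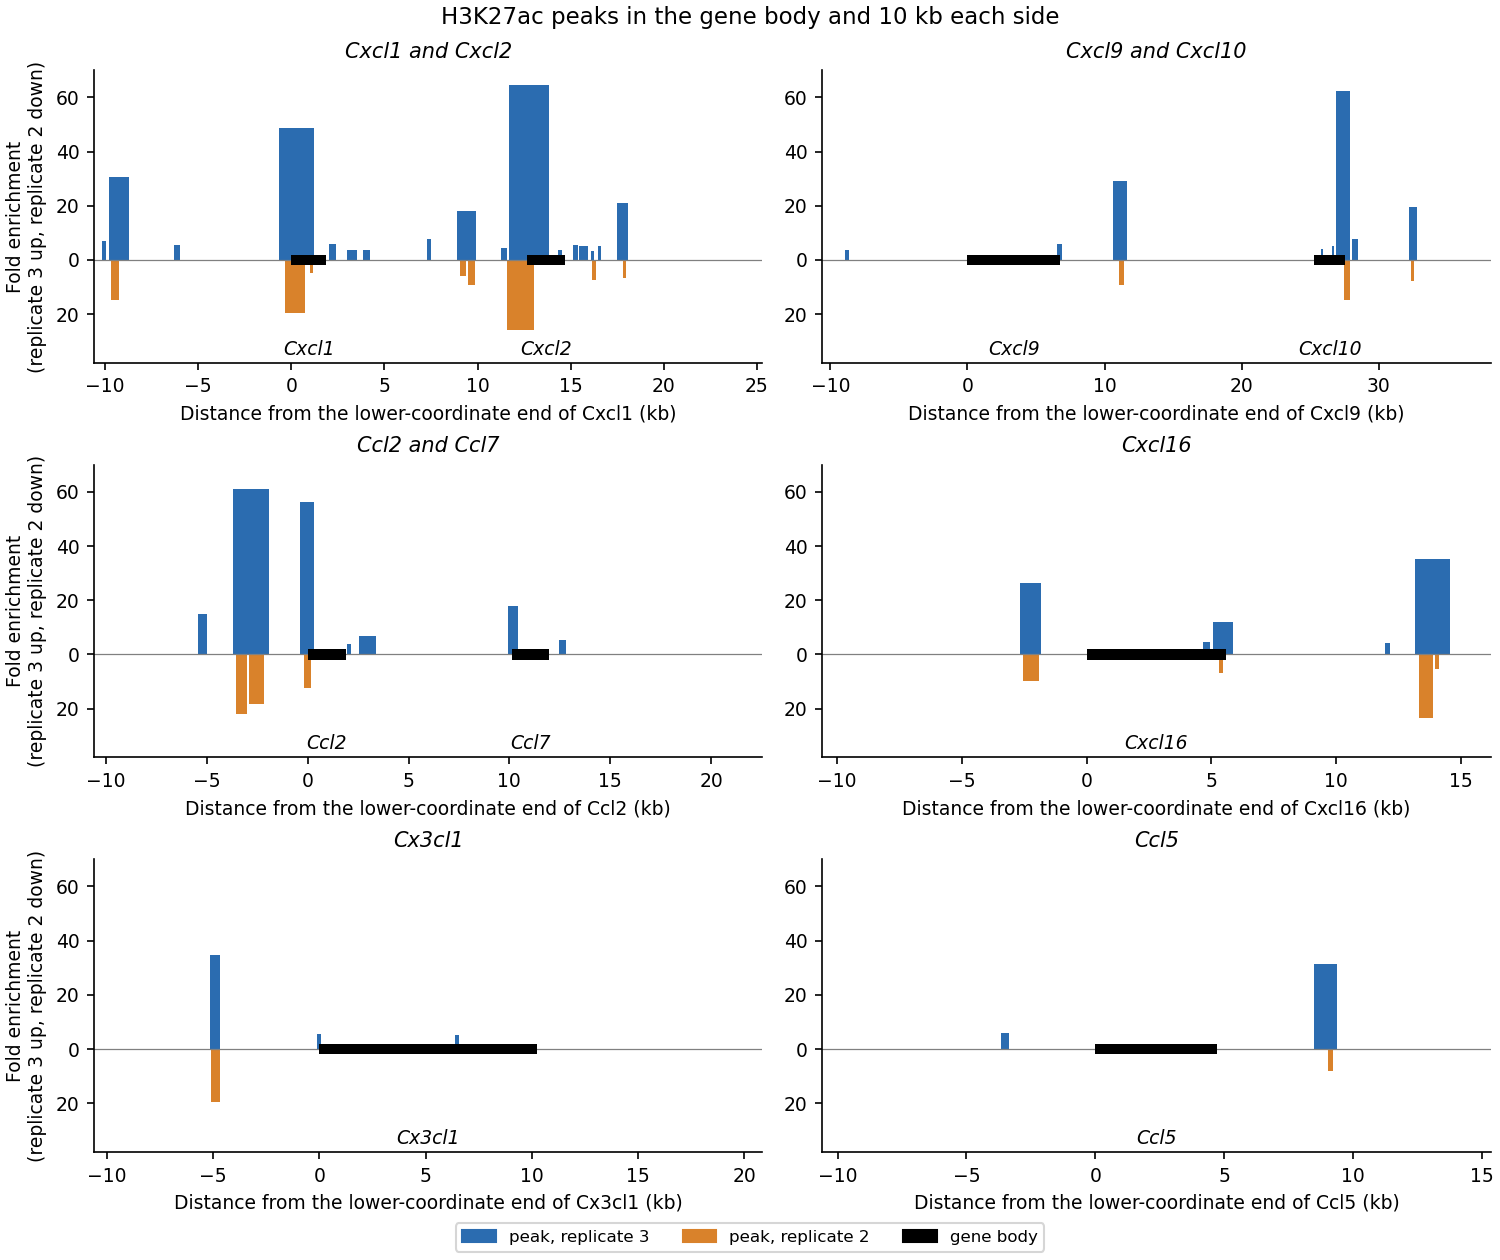
H3K27ac peaks of replicate 3 (blue, upward) and replicate 2 (orange, downward) around 9 chemokine genes, with fold enrichment as bar height, peak width to scale (at least 60 bp drawn), and gene bodies in black. Distance in kb runs from the lower-coordinate end of the first gene named. Peaks of both libraries lie at an end of *Cxcl1*, *Cxcl2*, *Cxcl10*, *Ccl2*, and, lower, *Cxcl16*. Away from the ends, they lie beside *Ccl2*, *Cxcl16*, and *Cx3cl1*. With lower replicate 2 peaks, they also lie beside *Cxcl1*, *Cxcl2*, *Cxcl10* (7.86 in replicate 2), and *Ccl5* (8.13 in replicate 2). *Cxcl12* had no peak and is not drawn.

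*Ccl2* and *Ccl7* encode CC chemokines that attract monocytes through CCR2. They lie on chromosome 11 at 82035577 to 82037452 and 82045712 to 82047525, 8.26 kb apart. At the lower-coordinate end of *Ccl2*, the shared region chr11:82035215-82035880 had a fold enrichment of 12.3 in replicate 2 (62.7th percentile) and 56.3 in replicate 3 (93.2nd percentile). A distal region at chr11:82031896-82033635, whose edge lay 1.94 kb below *Ccl2*, was higher still in both libraries. Its fold enrichment was 22.0 in replicate 2 (86.4th percentile) and 61.2 in replicate 3 (94.3rd percentile), and in replicate 2 it was called as 2 peaks. The highest distal peak of *Ccl2* thus had a higher fold enrichment than its end peak in both libraries, though by little in replicate 3. With 1 value a library, the spread of these values is not known. With a gene end window of 2.5 kb, this distal region would itself count as lying at the end of *Ccl2*.

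*Ccl7* differed from its neighbour. The peak at its lower-coordinate end, chr11:82045498-82045992, was called in replicate 3 only, with a fold enrichment of 17.8 at the 72.1st percentile, the highest of the 26 regions seen in that library alone. A replicate 2 peak was found at 71.5% of the 3169 peaks of replicate 3 whose fold enrichment was within 10% of it. The nearest replicate 2 peak was the one at the end of *Ccl2*, 9.96 kb from *Ccl7*. Of the other 4 genes of this CC cluster, *Ccl11*, *Ccl12*, *Ccl8*, and *Ccl1*, none had a peak of either library at an end. No peak there was found for 46.1% of all protein-coding genes and 57.5% of those no longer than *Cxcl12*.

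*Ccl5* encodes a CC chemokine best known from T cells and platelets. It lies on chromosome 11 at 83525778 to 83530518 and had no peak in either library within 1 kb of its ends. A shared distal region at chr11:83534276-83535144, with its edge 3.76 kb above the gene, had a fold enrichment of 8.13 in replicate 2 (38.2nd percentile) and 31.5 in replicate 3 (83.9th percentile). The only other peak in the window, of replicate 3, lay at an end of *Heatr9* and had a fold enrichment of 5.86. Within 50 kb of the gene no further shared region was found. The 4 neighbouring ligand genes *Ccl9*, *Ccl6*, *Ccl3*, and *Ccl4* had no peak at an end. This was the case for 46.1% of all protein-coding genes and 57.5% of those no longer than *Cxcl12*. The T or NK cell markers had a shared region at an end in 0 of 7 cases and a shared distal region at 2 of 7, *Cd3g* and *Cd2*. A shared distal region was found for 28.8% of all protein-coding genes and for all 12 LSEC markers.

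*Cxcl9* and *Cxcl10* encode CXC chemokines that attract T cells through CXCR3. They lie on chromosome 5 at 92321331 to 92328079 and 92346638 to 92348889, with 18.6 kb between them. At the start of *Cxcl10*, the shared region chr5:92348192-92349267 had a fold enrichment of 14.8 in replicate 2 (70.6th percentile) and 62.5 in replicate 3 (94.5th percentile). Its highest point lay 71 bases upstream of the start in replicate 2 and 76 in replicate 3, between the start and the GGGGACTTCC site described above. A shared distal region at chr5:92353539-92354097 peaked 4.90 and 4.94 kb upstream of *Cxcl10*, with fold enrichments of 7.86 and 19.5.

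At the start of *Cxcl9*, replicate 3 had a peak at chr5:92327894-92328207 with a fold enrichment of 5.97 (29.3rd percentile), and replicate 2 had none. A replicate 2 peak was found at 4.66% of the 8567 peaks of replicate 3 that were within 10% of that fold enrichment. The peak covered 51.2% of the promoter window printed above, whereas that of *Cxcl10* was wholly covered in both libraries. The strongest region of the *Cxcl9* window, chr5:92331942-92332958, peaked 4.51 and 4.52 kb upstream of *Cxcl9* with fold enrichments of 9.15 and 29.0, and lay at an end of *Art3*, whose body spans *Cxcl10*. It was therefore not counted as distal. *Cxcl11*, the third ligand of CXCR3, was not among the protein-coding genes of the annotation.

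*Cxcl16* and *Cx3cl1* encode the chemokines that are made as transmembrane proteins and can be shed from the cell surface. *Cxcl16*, the ligand of CXCR6, lies on chromosome 11 at 70454389 to 70459984. The shared region at its higher-coordinate end, chr11:70459464-70460256, had fold enrichments of 6.78 in replicate 2 (25.3rd percentile) and 11.9 in replicate 3 (60.8th percentile). These were the lowest of the 5 shared regions at a chemokine gene end, and the region also lay at an end of *Zmynd15*. A distal region at chr11:70467543-70468939, with its edge 7.56 kb above the gene, had 23.4 (88.4th percentile) and 35.1 (85.9th percentile). A further shared region, at the end of *Med11*, had 9.70 and 26.5.

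*Cx3cl1*, the ligand of CX3CR1, lies on chromosome 8 at 94772180 to 94782427. The strongest region of its window was distal, at chr8:94767043-94767528, and peaked 4.88 and 4.93 kb upstream of the start in replicates 2 and 3. Its fold enrichment was 19.7 in replicate 2 (82.5th percentile) and 34.5 in replicate 3 (85.6th percentile). At the start itself, replicate 3 had a peak of 150 bp with a fold enrichment of 5.54 (24.0th percentile), and replicate 2 had none. Among the 8378 peaks of replicate 3 within 10% of that value, 3.53% had a counterpart in replicate 2. Its neighbours *Ccl17* and *Ccl22*, ligands of CCR4, had a peak of replicate 3 only and no peak, respectively, at an end. At *Ccl17* the fold enrichment was 11.4.

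Of the 5 genes with a shared region at an end, all 5 also had a shared distal region. The region chr5:90900121-90901152 counted for both *Cxcl1* and *Cxcl2*. Over all protein-coding genes, 9644 had a shared region at an end and 6297 a shared distal region. Of the latter, 2278 had no shared region at an end. At 2 of the 5 chemokine genes, *Ccl2* and *Cxcl16*, the highest distal peak had a higher percentile than the highest end peak in both libraries. The share of such genes over all protein-coding genes is not at hand. For *Ccl2* the comparison rests on the gene end window of 1 kb, since its distal region came within 2.5 kb of the end. *Ccl5* and *Cx3cl1* had a shared distal region without a shared region at an end, which held for 10.4% of all protein-coding genes and 5.90% of those no longer than *Cxcl12*. *Cxcl1* and *Cxcl2* had 2 or more shared distal regions, which held for 12.5% and 3.94%. The fold enrichments at the ends were also ranked among gene ends. In replicate 3, *Cxcl2* was at the 74.2nd, *Cxcl10* at the 72.6th, *Ccl2* at the 67.7th, and *Cxcl1* at the 60.5th percentile of the 11792 protein-coding genes with a peak at an end. In replicate 2 they were at the 77.7th, 44.3rd, 34.6th, and 60.5th percentile of 9651 genes, so *Cxcl2* ranked first of these 4 in both libraries and the order of the others differed. *Cxcl16* was at the 8.14th and 15.6th percentile in replicates 2 and 3. In replicate 3, *Ccl7* was at the 23.6th, *Cxcl9* at the 4.80th, and *Cx3cl1* at the 3.62nd percentile. The 8 genes with a peak at an end thus fell, in that library, into 4 between the 60.5th and 74.2nd percentile and 4 between the 3.62nd and 23.6th.

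*Cxcl12*, the ligand of CXCR4 and ACKR3, stood apart from the other 9 genes. It lies on chromosome 6 at 117168535 to 117181368, and neither library had a peak in its window. The same was the case for 30.0% of protein-coding genes, 44.2% of those no longer than *Cxcl12*, and 11 of 27 other chemokine ligand genes. The peak nearest to *Cxcl12* lay 660 kb away in replicate 2 and 514 kb away in replicate 3. The stretch without a peak around *Cxcl12* was 1503 kb long in replicate 2 and 1171 kb in replicate 3. It wholly held 11 protein-coding genes in replicate 2 and 2 in replicate 3, *Cxcl12* among them. A nearest peak farther away than that of *Cxcl12* was found for 6.39% of protein-coding genes in replicate 2 and 6.49% in replicate 3. Its promoter, with 64.4% G and C and 14 CpG dinucleotides in 250 bases, was the richest in CpG of the 6 at hand together with that of *Cx3cl1*, which also had 14.

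The other genes of the pathway were taken from fixed lists. Of 27 other chemokine ligand genes, 3 had a shared region at an end, 3 had a peak of replicate 3 only, and 21 had none. Besides *Cxcl3* and *Pf4*, the shared ones included *Ccl25*, a chemokine of gut-homing T cells, with fold enrichments of 23.2 and 106, whose region also lay at an end of *Elavl1*. Of 18 receptor genes, 2 had a shared region at an end, and each of these regions also lay at an end of another gene. *Xcr1*, beside *Fyco1*, had 42.0 and 104, and *Ccr10*, beside *Cntnap1*, had 7.46 and 21.6. No shared region was found at an end of *Cxcr2*, *Ccr2*, *Cxcr3*, *Cxcr4*, *Cxcr6*, or *Cx3cr1*, which are receptors of ligands described above. Replicate 3 alone had a peak at *Cx3cr1*, with 14.3, and at *Cxcr4*, with 6.51.

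Among 5 genes listed as atypical chemokine receptors, a class without the usual signalling, *Ackr1* and *Ccrl2* had a shared region at an end. The fold enrichments were 6.71 and 15.3 at *Ackr1* and 13.6 and 27.1 at *Ccrl2*. *Ackr3*, the scavenger of CXCL12, had a peak of replicate 3 only at an end, with 8.85, and 2 shared distal regions. Of 7 genes for proteins that cut chemokines or hold them at the cell surface, 3 had a shared region at an end. *Adam10* and *Adam17*, proteases that shed CX3CL1 and CXCL16, had fold enrichments of 35.9 and 32.1 in replicate 2 and 123 and 96.1 in replicate 3. *Sdc4*, a heparan sulfate proteoglycan, had 17.9 and 30.6. All of these shares stand beside 44.1% over all protein-coding genes and 34.0% over those no longer than *Cxcl12*.

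**Figure D3:**
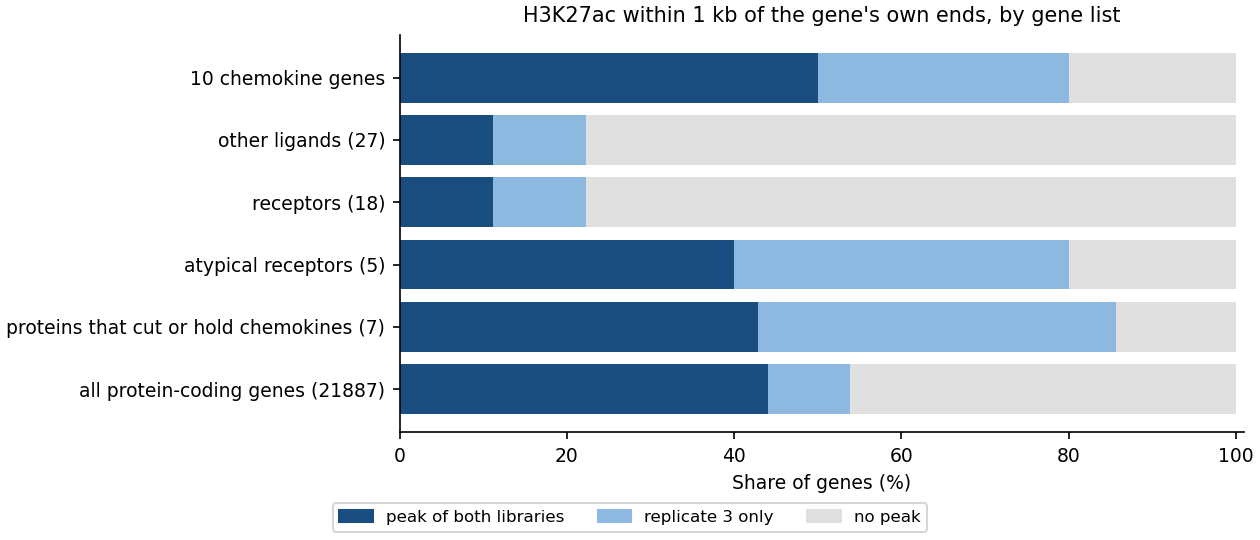
Share of genes (%, horizontal axis) with an H3K27ac peak of both libraries (dark blue), of replicate 3 only (light blue), or no peak (grey) within 1 kb of their own ends, for the 10 chemokine genes, 4 lists of related genes with their sizes in brackets, and all protein-coding genes, of which 7 with other combinations are not drawn. A peak of both libraries was found at 5 of the 10 genes and at 3 of 27 other ligands.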

How the data were processed

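H3K27ac ChIP-Seq peaks of 2 LSEC libraries were analysed, grouped by the names in the sample records, which name no condition. The authors called peaks for each library on its own. The deposited columns used were the fold enrichment (a ratio of peak to background), the −log10 of the p-value, and the −log10 of the q-value. The deposited score is 10 times the −log10 q and was not used further. The submitters' processing notes list mm10 and cutadapt 0.4.4, BWA 0.7.17, Picard 1.67, MACS2 2.0.10, and bedtools 2.27.1, without settings, and whether the inputs entered the calls is not given in the sources used here. The study names its assay as tagmentation-assisted, whereas the sample records describe sonication and a commercial library kit. Depth is not given in the lists. A weaker or shallower library yields fewer peaks, so every shared count rests mainly on replicate 2.

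Peaks of both libraries that overlapped by at least 1 bp were joined into regions. Gene positions came from RefSeq on GRCm38.p6, which is mm10, without exons. Strand was taken from the promoter table for 6 of the 10 genes, so ends of either side were used. Peak positions are counted from 1. The 10 genes were all named, and of the related lists those with a shared region at an end. Genes and lists were chosen with earlier results of these data known. With 1 group of 2 libraries no test was made, and counts stand beside those over all protein-coding genes. Overlap and classification were tested on simulated data. Alternatives were a stricter q-value, equal numbers of peaks, reciprocal overlap, other windows, and each library alone. The software was Python 3.11.15 with numpy 2.4.6 and pandas 2.3.3, and matplotlib 3.10.9 for the plots.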

Additional observations from a re-analysis of the deposited data

How the results depend on the processing

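No paired analysis was possible because the H3K27ac libraries form 1 group and the inputs that share their numbers were not analysed here. The main values were 5 genes with a shared region at an end, 7 with a shared distal region, 9 shared distal regions, and 9 genes with any shared region. A reciprocal overlap of at least 50% gave 3 genes with a shared region at an end, 2 with a shared distal region, and 2 such regions, and 6 genes with any shared region. The shares over all protein-coding genes are not at hand under this rule. A flank of 50 kb gave 21 shared distal regions. With each library left out in turn, genes with a region at an end ranged from 5 (without replicate 3) to 8 (without replicate 2), genes with a distal region from 7 to 8, distal regions from 12 to 19, where each peak counts once, and genes with any region were 9 and 9. Of 41 alternatives for these counts and for the medians of percentiles and covered shares, 6 moved the value past its limit. These values have no direction that could turn. Falls from 7 to 5 genes with a shared distal region were not among the 6. They came with a gene end window of 2.5 kb and with a flank of 5 kb. Among 46 alternatives for single genes, 3 moved past their limit: with a flank of 5 kb, the covered share of the *Cxcl2* window was 34.7% and that of *Ccl2* 20.3%, and ranked by p-value the highest *Cxcl16* peak of replicate 3 was at the 88.0th percentile. Under a q-value of 1e-05 or less and with both lists shortened to equal length by strength, the counts of genes were 5, 7, and 9 as before, and the shared distal regions were 8. Without the depth, a missing replicate 2 peak cannot be told from one too weak to be called.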
